A study of Mus musculus with 49 samples.

Results

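The clustered protocadherin genes are the 56 of 20489 measured genes whose symbols place them in the alpha, beta or gamma protocadherin cluster, and they were found by a pattern on the gene symbol alone (Pcdha, Pcdhb, Pcdhga, Pcdhgb, Pcdhgc and Pcdhac followed by a number). The alpha cluster contributed 13 genes, the beta cluster 22 and the gamma cluster 21, and 5 of them were C-type genes (Pcdhac1, Pcdhac2, Pcdhgc3, Pcdhgc4 and Pcdhgc5). RNA was measured in 49 libraries of mouse embryonic stem (ES) cells from 16 groups. In the degron line the endogenous gene of the chromatin reader Trim24 carried a C-terminal FKBP12(F36V)-V5 tag, so that dTAG13 (500 nM) removes the protein, and doxorubicin (1 µM) was used to activate p53. The time course held untreated degron cells (0 h) and cells given doxorubicin for 2, 4, 8 or 12 h, with Trim24 present or with dTAG13 added for the same hours (3 libraries each). An uninduced experiment compared dTAG13 (4 h) with no treatment in the degron line without doxorubicin (3 libraries each; one label of the untreated libraries names activated p53 while their titles name no treatment, and the titles were followed). A RING experiment held doxorubicin-treated degron cells with and without dTAG13 and a separate line whose endogenous Trim24 carries ligase-null RING mutations, also given doxorubicin (4 h, 4 libraries each), so that clone and mutation cannot be told apart there. Wild-type TC-1 ES cells, of strain 129S6/SvEvTac, from which the degron line was made, were measured untreated and after 4 h of doxorubicin (2 libraries each).

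Protocadherins are cell-surface adhesion proteins of the cadherin superfamily. In the alpha and gamma clusters each variable exon has a promoter of its own and is spliced to constant exons shared by the whole cluster, whereas each beta gene is essentially a lone exon. In neurons, which promoters are active is set cell by cell through DNA methylation and CTCF- and cohesin-dependent contact with distant enhancers, and the resulting set of isoforms gives each neuron a surface identity used in self-avoidance. The C-type genes lie at the end of the alpha and gamma arrays and are less subject to this choice.

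All 56 genes lie on the plus strand of chromosome 18 (GRCm38, GENCODE M21 annotation). The alpha genes run from 36930184 to 37187661, the beta genes from 37264938 to 37524479 and the gamma genes from 37661793 to 37841873. A non-coding gene, 3222401L13Rik, ends 51 bases before the start of Pcdhga1. A median of 53.6% of the exonic bases of an alpha gene and 45.2% of those of a gamma gene overlapped another gene, against 0.0% in the beta cluster. With the authors' default counting, a read over such shared bases is given to no gene, so the alpha and gamma values describe the variable exons and not the constant exons. Pcdhga10 has no exonic base of its own in this annotation and was listed at 0 in all 49 libraries, so nothing can be read from it. The libraries were made from total RNA, and a read over a variable exon from a spliced isoform and from unspliced precursor that began at an upstream promoter cannot be told apart. No sequence is shown for these genes.

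Between 14422098 and 35185256 reads per library fell on genes, and 1 CPM (a count scaled to a common library total) stood for 17.1 to 33.4 reads. Mdm2, a direct p53 target, rose from 180.9 ± 4.65 CPM at 0 h to 966.2 ± 32.0 at 4 h (SD, n = 3), and all 10 genes of a p53 target list passed the test at 2 h and at 4 h. Trim24 RNA, which dTAG13 does not act on, was 120.5 ± 2.52 CPM with the protein present and 141.5 ± 3.41 with dTAG13 at 4 h, so the RNA is no check of the protein's removal. Without dTAG13 this RNA itself fell after activation, from 210.6 CPM at 0 h to 67.2 at 8 h and 69.7 at 12 h. Of the ES cell markers, Pou5f1 stood at 987.2 CPM, Nanog at 627.6 and Zfp42 at 1191 at 0 h, and the sum of 10 such markers fell from 5568 to 5668 CPM at 0 h to 1037 to 1141 at 12 h. The summed level of 1137 olfactory receptor genes, which ES cells are not known to use, rose over the time course from 74.8 to 80.6 CPM at 0 h to 166 to 205 at 12 h. It also stood apart in single libraries, at 190.9 CPM in replicate 7 of the Trim24-expressing cells of the RING experiment, at 188 to 266 in ligase-null replicates 2, 3 and 4, and at 299.6 in replicate 1 of the Trim24-degraded cells at 8 h. It is given below beside each result for low genes that it moves with.

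In untreated cells the gamma cluster held nearly all of the signal. At 0 h the gamma genes summed to 27.8 ± 0.718 CPM, which was 91.0% of the reads of all clustered protocadherins, the beta genes to 2.13 ± 0.278 and the alpha genes to 0.597 ± 0.177 (SD, n = 3). All 13 alpha genes and all 22 beta genes were under 1 CPM at 0 h, as were 10 gamma genes, and 10 members had no read in any of the 3 libraries. Per kilobase of unshared exon, the highest level at 0 h was that of Pcdhga1, at 1.73 ± 0.161 CPM per kb. Pcdhga12 at 1.16 ± 0.156 and the C-type gene Pcdhgc3 at 1.15 ± 0.238 CPM per kb came next, and these did not differ from each other beyond their spread. In the beta cluster Pcdhb17 (0.163 ± 0.0487 CPM per kb), Pcdhb7 (0.0741 ± 0.0227) and Pcdhb22 (0.0554 ± 0.0217) were highest, and the latter pair did not differ beyond its spread. In the alpha cluster Pcdha7 (0.0541 ± 0.0587), Pcdhac2 (0.0475 ± 0.0257) and Pcdha8 (0.0303 ± 0.0364) led with values that overlapped one another and rested on at most 5 reads of any gene in a library. Pcdhga1 and Pcdhga12 alone made up 31.6% of the reads of all members.

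After p53 activation a run of neighbouring alpha genes rose from near 0. Pcdha5, Pcdha6, Pcdha7, Pcdha8, Pcdha9 and Pcdha11 together summed to 0.343 ± 0.222 CPM at 0 h (4 to 12 reads a library), 1.36 ± 0.393 at 2 h, 2.98 ± 0.198 at 4 h, 4.70 ± 1.09 at 8 h (75 to 113 reads) and 3.06 ± 0.337 at 12 h. The 8 h sum was 13.7 times that at 0 h. Pcdha1 to Pcdha4, which lie upstream in the same array, also stood above their 0 h level, at lower values. Their sum was 0.0358 ± 0.0314 CPM at 0 h (0 to 1 reads a library), 0.257 ± 0.164 at 2 h, 0.317 ± 0.133 at 4 h, 0.387 ± 0.254 at 8 h (2 to 11 reads) and 0.208 ± 0.0967 at 12 h, and every treated library lay above every untreated one. The 0 h level rested on so few reads that no fold is given for them, and whether they changed less than the genes downstream was not tested. Neither sum is scaled to unshared exon length, which is 404 bases for Pcdha4 and 2346 for Pcdha5. Per kilobase Pcdha4 stood at 0.145 CPM at 2 h, on 3 reads in 1 library, against 0.0932 for Pcdha7. At 8 h Pcdha4 was at 0.0882 and Pcdha7 at 0.435 CPM per kb. The olfactory receptor sum was 1.09 times its 0 h level at 2 h, 1.26 times at 4 h and 2.11 times at 8 h, while the sum of the 6 alpha genes was 3.96, 8.70 and 13.7 times its own. These 6 genes were grouped after their values had been seen, and their sum has no test. The part of the olfactory receptor rise in that sum was not tested.

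Pcdha6 was the alpha gene that passed the test at 2 h. It had 0.149, 0 and 0 CPM in the 3 libraries at 0 h, 0.609, 0.464 and 0.527 at 2 h, 0.966, 1.03 and 0.742 at 4 h, 1.12, 0.801 and 1.82 at 8 h. By 12 h it was at 0.627, 0.526 and 0.795. Every treated library lay above every untreated one. It passed both thresholds (limma with Benjamini-Hochberg adjustment, p under 0.01, and a change of 0.75 or more on the log2 scale) at every time, with a log2 fold change of 1.15 ± 0.23 (SE, adjusted p = 0.00149) at 2 h and 1.95 ± 0.22 (adjusted p = 3.46e-14) at 8 h. These fold changes are on the scale of the deposited values, log2 CPM with 8 counts added, which makes the fold changes of such low genes too small. The p-values at 8 h rest almost wholly on a spread pooled over genes and are not comparable with those of the other times. Pcdha5 stood at 0.0498, 0 and 0.0584 CPM at 0 h and at 0.772, 0.287 and 0.514 at 4 h, again without overlap. Its log2 fold change was 0.93 ± 0.25 at 2 h (adjusted p = 0.0144, not past the threshold) and 1.13 ± 0.24 at 4 h (adjusted p = 0.000373). Pcdha7 rose later, from 0.249, 0.0981 and 0 CPM at 0 h to 0.111, 0.253 and 0.234 at 2 h, which overlapped, and to 0.869, 0.575 and 1.08 at 4 h, which did not (log2 fold change 1.35 ± 0.24, adjusted p = 6.81e-05). Pcdha8, Pcdha9 and Pcdha11 passed only at 8 h or later. Pcdha8 at 2 h, and Pcdha9 and Pcdha11 at 2 h and 4 h, were under the filter on low values and were not tested. The time at which they passed therefore does not date their rise. At 8 h Pcdha8 had a log2 fold change of 1.58 ± 0.22, Pcdha9 of 1.07 ± 0.23 and Pcdha11 of 1.05 ± 0.23, with adjusted p of 1.48e-10, 1.25e-05 and 1.85e-05. Under quantile normalization Pcdha9 and Pcdha11 did not pass at 8 h (0.45 and 0.43).

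**Figure D1:**
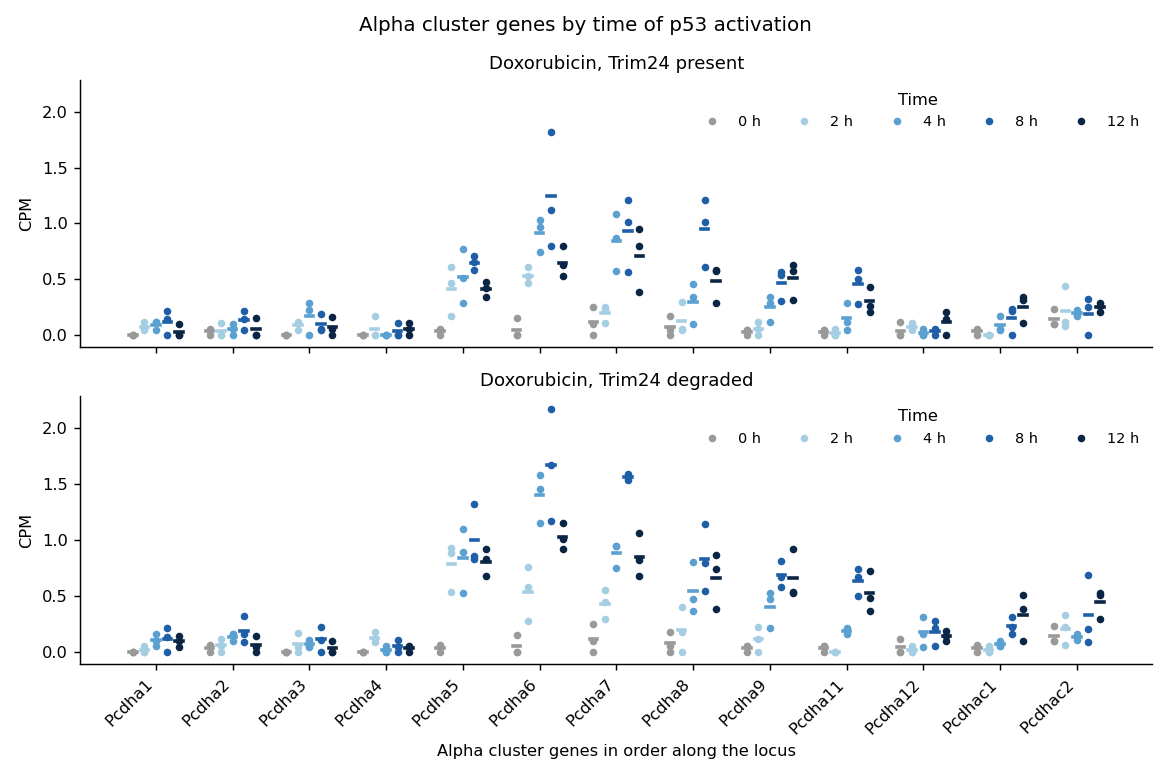
Level in CPM (y axis) of the 13 alpha cluster genes in their order along the locus (x axis) at each time of doxorubicin, with Trim24 present (top) and degraded (bottom). Each point is a library, each bar the mean of 3, and the 0 h libraries are the same in both panels. The genes from Pcdha5 to Pcdha11 sum to 4.70 CPM at 8 h with Trim24 present, and Pcdha1 to Pcdha4, which summed to 0.0358 at 0 h, to 0.387.

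At 2 h the genes nearer the start of the run stood closer to their later level. Pcdha5 begins 30.3 kb downstream of Pcdha1 and Pcdha11 75.0 kb downstream, so that 44.8 kb separate their starts. With Trim24 present the mean level at 2 h was 63.9% of the level at 8 h for Pcdha5, 42.8% for Pcdha6, 21.4% for Pcdha7, 13.8% for Pcdha8, 12.3% for Pcdha9 and 4.26% for Pcdha11. In the Trim24-degraded cells, which are separate libraries, the same shares were 78.0%, 32.2%, 27.5%, 23.2%, 16.4% and 0.0%. Both series fell at each step from Pcdha5 to Pcdha11. The shares are not net of the 0 h level. With Trim24 present, Pcdha8 stood at 0.0303 CPM per kb at 0 h and 0.0525 at 2 h. Pcdha9 was at 0.0133 and 0.0232, and Pcdha11 at 0.00875 and 0.00519, so Pcdha11 had not risen. Pcdha12, the next gene, did not follow this order with Trim24 present. It was at 0.0363 CPM per kb at 2 h and 0.0178 at 8 h, on at most 2 reads a library. Without Trim24 it was at 0.0095 and 0.0919. The genes upstream of the run did not follow the order either, on at most 4 reads a library with Trim24 present. Pcdha1 was at 0.0288 CPM per kb at 2 h and 0.0476 at 8 h, and Pcdha2 at 0.0148 and 0.0541. Pcdha3 was at 0.0364 and 0.0394, and Pcdha4 at 0.145 and 0.0882. Over 3 libraries at 2 h, Pcdha8 rested on 7 reads with Trim24 and 12 without it, and Pcdha9 on 3 and 7. Pcdha11 rested on 1 read and 0 reads. The steps from Pcdha8 to Pcdha11 are therefore bounded by counting. At 4 h the shares no longer fell at each step, and at 12 h the level of Pcdha5 and Pcdha6 with Trim24 present was 63.3% and 52.1% of that at 8 h, against 109% for Pcdha9. The order was described after the values had been seen and has no test.

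**Figure D2:**
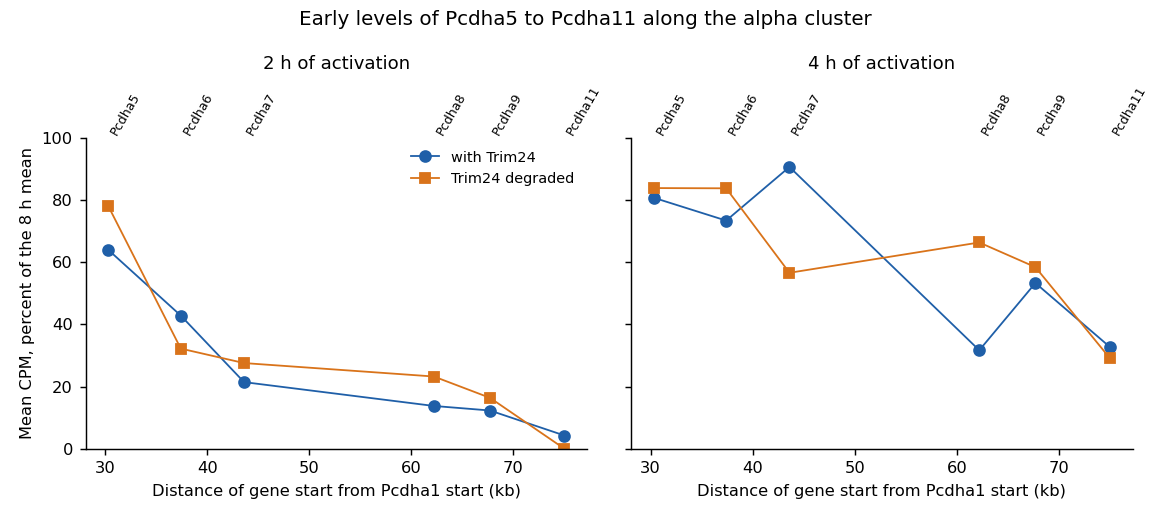
Mean CPM of Pcdha5 to Pcdha11 at 2 h (left) and 4 h (right) as a percent of the 8 h mean of the same arm (y axis), against the distance of each gene's start from that of Pcdha1 in kb (x axis). At 2 h both arms fall from 63.9% and 78.0% at Pcdha5 to 4.26% and 0.0% at Pcdha11.

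The C-type genes at the end of the alpha array did not pass in any comparison. Pcdhac2 stood at 0.0997, 0.0981 and 0.234 CPM at 0 h and at 0.289, 0.210 and 0.265 at 12 h, with a log2 fold change of 0.30 ± 0.20 (adjusted p = 0.171). Pcdhac1 had 0, 0.0491 and 0.0584 CPM at 0 h and 0.338, 0.316 and 0.106 at 12 h and was under the filter on low values in that comparison. The Pcdhac2 groups overlapped, and a small change would not have been detectable at this depth. The Pcdhac1 groups did not overlap, and its higher level at 12 h was not tested.

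In the wild-type ES cells, a separate experiment in a line without the degron, the same alpha genes were the members past the thresholds after p53 activation. Pcdha5 went from 0.0619 and 0.06 CPM to 0.442 and 0.627, and Pcdha6 from 0.031 and 0.03 to 0.410 and 0.752. Their log2 fold changes were 1.08 ± 0.26 (adjusted p = 0.000187) and 1.25 ± 0.26 (adjusted p = 1.31e-05). Of 33 members tested 2 were higher (limma, 7.99% of all genes were called higher), and Pcdha7 at 0 and 0.03 against 0.410 and 0.188 CPM did not pass (log2 fold change 0.80 ± 0.27, adjusted p = 0.0122). The olfactory receptor sum was 91.7 to 132.7 CPM untreated and 132.3 to 217 after doxorubicin, 1.56 times, while the sum of Pcdha5 to Pcdha11 was 6.57 times its untreated level, and its part in the result was not tested. With 2 libraries a group the fit took its spread almost wholly from the pooled estimate. Without that trend and robust estimate the limma adjusted p-values were 0.0039 and 0.00798. Pcdha5 did not pass without untreated replicate 1 (adjusted p = 0.0102), untreated replicate 2 (0.0107) or doxorubicin replicate 2 (0.0143).

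The gamma cluster rose late. Its sum was 27.8 ± 0.718 CPM at 0 h, 29.7 ± 0.642 at 2 h, 26.2 ± 1.97 at 4 h, 36.5 ± 1.61 at 8 h and 62.1 ± 3.97 at 12 h (SD, n = 3), so that the rise came after 4 h. Pcdhga1, the first gene of the array, accounted for most of it. It had 4.39, 5.25 and 5.08 CPM at 0 h, 3.33, 3.10 and 3.14 at 4 h, 9.35, 8.48 and 9.99 at 8 h. At 12 h it reached 23.8, 25.6 and 22.7 CPM. The 4 h libraries were all below the untreated ones (log2 fold change -0.57 ± 0.13, adjusted p = 0.00119, under the minimum fold) and the 8 h and 12 h libraries all above. The log2 fold change from 0 h was 0.87 ± 0.13 at 8 h (adjusted p = 6.38e-10, but 0.38 under quantile normalization and 0.66 under median centring, both below the minimum fold) and 2.21 ± 0.10 at 12 h (adjusted p = 1.48e-12), and from 4 h to 12 h it was 2.78 ± 0.11 (adjusted p = 5.64e-16).

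The rise of the next gamma genes was smaller with distance from Pcdhga1. Pcdhga2, whose start lies 7.2 kb from that of Pcdhga1, went from 2.19, 1.91 and 1.58 CPM to 7.14, 9.88 and 9.06 at 12 h, 4.59 times its mean at 0 h (log2 fold change 2.00 ± 0.16). Pcdhga3, at 12.5 kb, reached 2.39 times and Pcdhgb1, at 18.4 kb, 2.19 times their level at 0 h (log2 fold changes 1.11 ± 0.16 and 0.79 ± 0.21, both past the thresholds, although under quantile normalization they were 0.28 and -0.07 and did not pass, and under median centring Pcdhgb1 was at 0.58 and did not pass). Pcdhga4, at 23.4 kb, and Pcdhgb2, at 28.0 kb, stood at 1.58 and 1.10 times and did not pass. Of the 11 A- and B-type genes further along, 9 stood below their 0 h mean at 12 h (0.251 to 0.763 times). The exceptions were Pcdhga6, at 45.2 kb, at 1.62 times (not past the thresholds) and its neighbour Pcdhga7, at 3.23 times. At 12 h Pcdhgb4 was at 0.367 times, Pcdhgb5 at 0.251 times, Pcdhga9 at 0.292 times, Pcdhgb7 at 0.346 times and Pcdhga12 at 0.512 times its 0 h mean, and all passed (log2 fold changes -0.94 ± 0.23, -1.34 ± 0.20, -0.86 ± 0.23, -0.99 ± 0.19 and -0.87 ± 0.15). Pcdhga12, the last variable gene before the C-type genes, fell from 4.24, 4.61 and 5.49 CPM to 2.22, 2.26 and 2.86 without overlap. Over the 17 A- and B-type gamma genes Spearman's rho between position and the log2 fold change at 12 h was -0.83. Neighbouring genes share libraries and may share precursor RNA, so they are not independent and the coefficient is a description. Pcdhgb1 did not pass without 12 h replicate 2 (log2 fold change 0.53), Pcdhga9 without 0 h replicate 2 (-0.77, adjusted p = 0.0148) or 12 h replicate 3 (-0.61), and Pcdhgb4 without 0 h replicate 3 (-0.74).

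**Figure D3:**
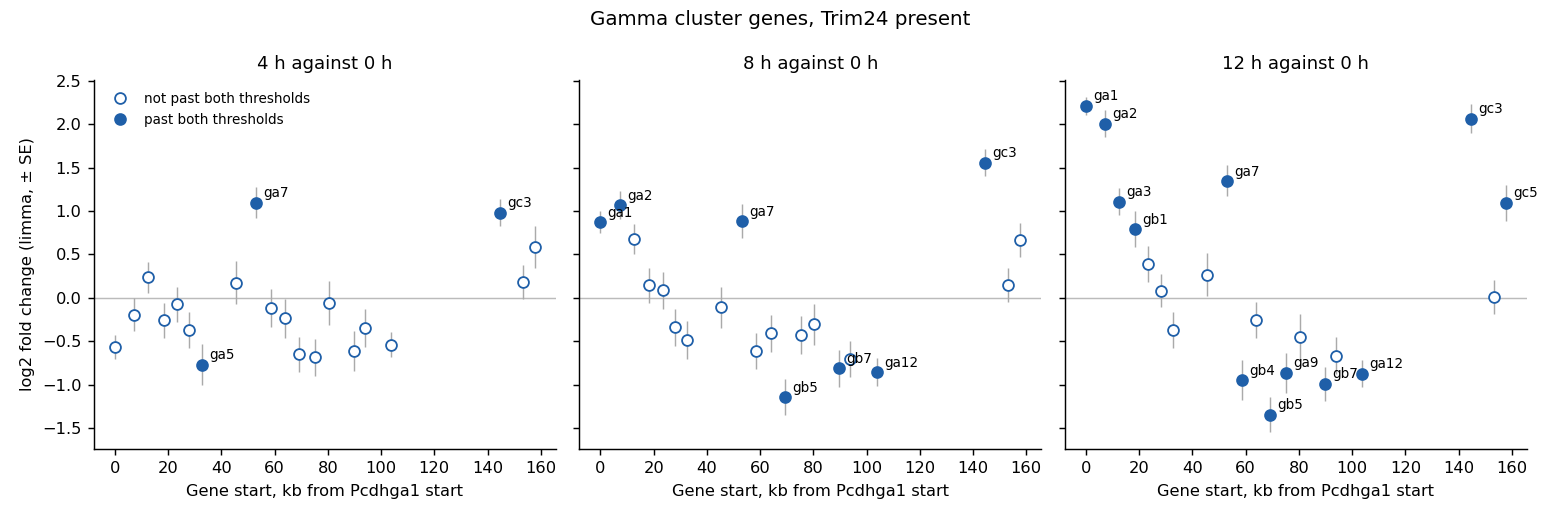
Log2 fold change from 0 h (y axis, limma, bars are standard errors) of the 20 gamma genes that could be tested, against the distance of their starts from that of Pcdhga1 in kb (x axis), at 4, 8 and 12 h with Trim24 present. Filled points passed both thresholds. At 12 h the values fall from 2.21 at Pcdhga1 to -1.34 at Pcdhgb5, with Pcdhga7, Pcdhgc3 and Pcdhgc5 apart from that slope.

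Pcdhga7, in the middle of the array, and the C-type gene Pcdhgc3 did not follow this slope and rose from early on. Pcdhgc3 had 1.89, 2.60 and 1.81 CPM at 0 h, 4.25, 4.60 and 4.51 at 4 h, 8.45, 6.17 and 6.05 at 8 h. The 12 h libraries held 7.62, 11.25 and 11.02 CPM, and no treated library overlapped the untreated ones. Its log2 fold change was 0.63 ± 0.16 at 2 h (adjusted p = 0.0109), 0.98 ± 0.15 at 4 h (adjusted p = 1.95e-05, but 0.67 and below the minimum fold under quantile normalization) and 2.06 ± 0.17 at 12 h (adjusted p = 2.51e-09). In wild-type cells it went from 2.79 and 2.19 CPM to 3.63 and 4.76, a log2 fold change of 0.68 ± 0.16 that was under the minimum fold (adjusted p = 0.000169). Pcdhgc5 reached 2.46, 2.31 and 3.34 CPM at 12 h from 1.25, 0.687 and 1.34 (log2 fold change 1.10 ± 0.20, adjusted p = 9.14e-05, but 0.21 under quantile normalization). The third gamma C-type gene, Pcdhgc4, stood at 1.25, 1.08 and 0.934 CPM at 0 h and 1.01, 1.47 and 0.848 at 12 h, and its log2 fold change was 0.01 ± 0.19 (adjusted p = 0.973).

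Pcdhga7 went from 0.847, 0.932 and 0.701 CPM at 0 h to 1.16, 2.19 and 2.29 at 2 h and 1.88, 2.24 and 2.40 at 4 h, all above the untreated libraries. It passed at 2 h (log2 fold change 0.88 ± 0.22, adjusted p = 0.00802), at 4 h (1.10 ± 0.18, adjusted p = 2.88e-05), at 8 h and at 12 h (1.35 ± 0.18, adjusted p = 1.83e-06). The 2 h call was lost in voom on the recovered reads (adjusted p = 0.0184), under quantile normalization (0.0276), with no filter (0.0175), with a stricter filter (0.0107), without trend and robust estimation (0.0512), and without 0 h replicate 1 (0.0239), 0 h replicate 3 (0.0326), 2 h replicate 2 (0.067) or 2 h replicate 3 (0.0212). Under quantile normalization Pcdhga7 also did not pass at 4 h (log2 fold change 0.71), 8 h (0.05) or 12 h (0.45), and under median centring it did not pass at 8 h (0.68). In wild-type cells it was already at 2.42 and 1.32 CPM untreated and at 1.83 and 2.70 after doxorubicin, which overlapped (log2 fold change 0.26 ± 0.18, adjusted p = 0.275). Whether its response differed between the lines was not tested.

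In the beta cluster 2 genes passed in the time course with Trim24 present, Pcdhb17 as lower and Pcdhb2 as higher. None of its 22 genes reached a mean of 1 CPM in any of the 16 groups. Pcdhb17 fell from 0.748, 0.540 and 0.993 CPM at 0 h to 0.241, 0.230 and 0.285 at 4 h and 0.0482, 0.0526 and 0.0530 at 12 h, which were 1 read in each library, and neither the 4 h nor the 12 h libraries overlapped the untreated ones. Its log2 fold change was -0.86 ± 0.21 at 4 h (adjusted p = 0.00172) and -1.43 ± 0.20 at 12 h (adjusted p = 3.71e-06). The 4 h call was lost without 0 h replicate 3 (adjusted p = 0.0157). Pcdhb2 had no read in the 3 libraries at 0 h and stood at 0.530, 0.210 and 0.636 CPM at 12 h (adjusted p = 0.000130, but 0.0245 under quantile normalization), over the hours in which the olfactory receptor sum rose 2.45 times. Whether the olfactory rise had a part in it was not tested. In the RING experiment Pcdhb17 was scattered from 0.0486 to 0.672 CPM within the Trim24-expressing cells.

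The members called are given here beside the share of all genes called. At 2 h of activation 2 of 27 members tested were higher and 0 lower (limma, 3.07% and 0.677% of all genes). At 4 h 5 of 30 were higher and 2 lower (12.9% and 5.80%), at 8 h 10 of 31 and 4 (27.0% and 18.3%), and at 12 h 13 of 32 and 6 (30.3% and 22.9%). Between 4 h and 12 h 5 of 33 were higher and 1 lower (22.2% and 14.7%). The median log2 fold change of the members tested was -0.09 at 4 h and 0.28 at 12 h, against -0.01 and 0.04 over all genes tested. Members at or near 0 at 0 h entered the test only through the libraries where they were high, so these counts do not describe the clusters as a whole, and 32 of the 56 were tested at 12 h. With 0 called lower at 2 h, 8 members had an unadjusted p under 0.05 in either direction, and voom called 2 higher and 0 lower.

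The split between higher and lower calls depended on the scaling at the later times. Quantile normalization, which forces all libraries to a common distribution, called 3 members as higher against 9 as lower at 4 h, 3 against 12 at 8 h, 3 against 14 at 12 h, and 2 against 7 between 4 h and 12 h. Centring each library on its median called 8 against 6 at 8 h, 10 against 8 at 12 h, and 4 against 2 between 4 h and 12 h. Quantile normalization changed the log2 fold change of a gene by a median of -0.21 at 8 h and -0.23 at 12 h over all genes and of -0.72 and -0.66 over the members tested, and median centring by -0.21 and -0.22 over both. The calls lost under quantile normalization included those of Pcdha5 and Pcdha7 at 8 h and of Pcdha5, Pcdha6, Pcdha7, Pcdha8 and Pcdha9 at 12 h. Pcdha5, Pcdha6 and Pcdha7 at 4 h, Pcdha6, Pcdha8 and Pcdhgc3 at 8 h, and Pcdhga1, Pcdhga2 and Pcdhgc3 at 12 h passed as higher under both scalings as well as in the values as deposited.

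Removing Trim24 raised no clustered protocadherin gene past the thresholds. With doxorubicin for 2 h 0 of 29 members tested changed (limma, 0.338% of all genes did), for 4 h 0 of 31 (1.15%) and for 8 h 0 of 39 (1.58%). Unadjusted p was under 0.05 for 2, 4 and 3 of them, and voom on the recovered reads also called 0 at each of these times. In uninduced cells 0 of 24 changed (0.0781%, 4 with an unadjusted p under 0.05, 0 by voom), and in the RING experiment 0 of 32 (1.15%, 4 with an unadjusted p under 0.05, 0 by voom). At 12 h 1 of 33 changed (4.11% of all genes), and it was lower (1.41% of all genes were lower).

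That member was Pcdhga7. At 12 h it had 3.04, 2.16 and 2.81 CPM with Trim24 and 1.16, 1.34 and 1.16 without it, with no overlap, a log2 fold change of -0.93 ± 0.18 (adjusted p = 0.000260). At 2 h the groups overlapped, at 1.16, 2.19 and 2.29 against 2.00, 1.63 and 2.14 CPM. At 4 h the degraded libraries lay below the others, at 1.73, 1.64 and 1.46 against 1.88, 2.24 and 2.40, as they did at 8 h, at 1.49, 1.40 and 1.27 against 2.08, 1.79 and 1.61, but the differences did not pass (log2 fold changes -0.36 ± 0.17 and -0.33 ± 0.20, adjusted p = 0.183 and 0.327). The change in the effect of Trim24 loss from 4 h to 12 h was -0.57 ± 0.24 on the log2 scale (interaction, adjusted p = 0.0803), so a difference between the times was not shown. In the RING experiment at 4 h the degraded libraries had 1.88, 1.79, 2.12 and 1.37 CPM against 1.81, 0.973, 1.82 and 1.52, which overlapped (log2 fold change 0.20 ± 0.18). Summed markers of primitive endoderm stood at 109 to 124 CPM with Trim24 and 234 to 254 without it at 12 h, and their part in the result was not tested. Cubn alone made up a mean of 91.8 CPM of the sum with Trim24. The call at 12 h held in all 6 fits that left out a library.

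**Figure D4:**
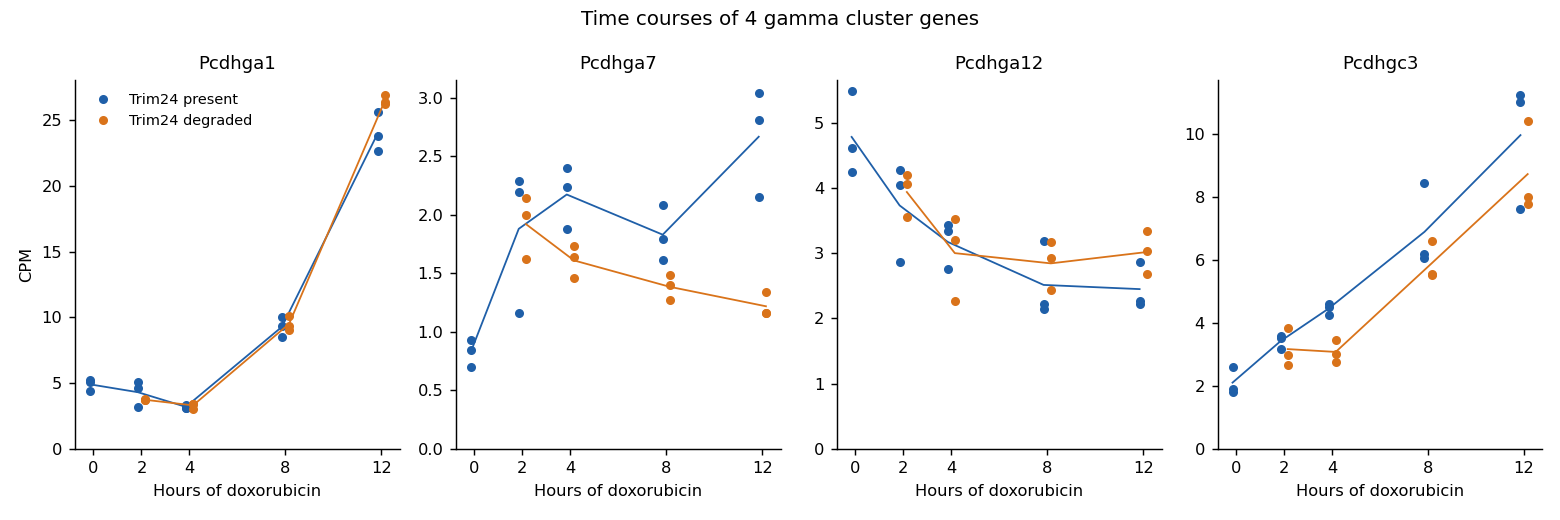
CPM (y axis) of Pcdhga1, Pcdhga7, Pcdhga12 and Pcdhgc3 against hours of doxorubicin (x axis). Each point is a library, lines join the means of 3, blue is Trim24 present and orange Trim24 degraded. Pcdhga1 rises to 22.7 CPM or more in both arms at 12 h, and the Pcdhga7 arms separate to 2.16 to 3.04 against 1.16 to 1.34 CPM.

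No member passed the test of whether the effect of Trim24 loss differed between times. The interaction called 0 of 34 members between 2 h and 4 h (limma, 0.0485% of all genes), 0 of 44 between 8 h and 4 h (0.113%) and 0 of 39 between 12 h and 4 h (3.51%), with 1, 0 and 2 members at an unadjusted p under 0.05 and 0 by voom in each.

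The activated alpha genes had higher means without Trim24, although no single gene passed. The sum of Pcdha5 to Pcdha11 was 2.76 to 3.14 CPM with Trim24 and 4.09 to 4.57 without it at 4 h, 3.54 to 5.70 against 5.93 to 7.05 at 8 h, and 2.70 to 3.37 against 4.39 to 4.85 at 12 h. At 2 h it was 0.928 to 1.70 against 1.72 to 2.36, and in the RING experiment 1.70 to 2.43 against 3.18 to 4.24. In each of these 5 comparisons every degraded library lay above every expressing library, and the ratio of the means was 1.52, 1.43, 1.36 and 1.48 over the time course and 1.88 in the RING experiment. The sum has no test, since its genes were chosen with their values known, and the comparisons at 4 h come from separate experiments. Summed primitive endoderm markers were also higher without Trim24 at 4 h (146.5 to 153.9 against 104.9 to 113.9 CPM), at 8 h (131.2 to 155.4 against 95.55 to 107.1), at 12 h (234 to 254 against 109 to 124) and in the RING experiment (49.7 to 54.6 against 16.5 to 19.8), whereas at 2 h they overlapped (126.0 to 138.8 against 123.3 to 131.9). Their part in the result was not tested. In the time course with Trim24 present, Cubn alone stood at 97.1 CPM at 0 h and 91.8 at 12 h, so it carried most of the marker sum there. Of the 6 genes, 5, 6, 5 and 6 had a higher mean without Trim24 at 2, 4, 8 and 12 h, and 6 in the RING experiment.

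Gene by gene, Pcdha7 came nearest to the thresholds. In the RING experiment it had 0.8294, 1.03, 0.913 and 1.28 CPM without Trim24 and 0.672, 0.389, 0.416 and 0.409 with it, without overlap, and its log2 fold change of 0.73 ± 0.20 (adjusted p = 0.00573) was just under the minimum of 0.75. Without replicate 4 of either group 1 member was called in that comparison. At 8 h Pcdha7 was at 1.59, 1.55 and 1.54 CPM against 1.02, 0.566 and 1.21 (log2 fold change 0.61 ± 0.21, adjusted p = 0.0376). Pcdha6 had a log2 fold change of 0.64 ± 0.19 (adjusted p = 0.0144) in the RING experiment and 0.47 ± 0.19 (adjusted p = 0.122) at 4 h of the time course. The olfactory receptor sum was 87.7 to 102 CPM without Trim24 against 81.2 to 86.6 with it at 2 h, 120 to 151 against 91.7 to 103 at 4 h and 179 to 300 against 131 to 213 at 8 h. At 12 h it was 142 to 187 CPM without Trim24 against 166 to 205 with it, and in the RING experiment 79.1 to 110 against 97.3 to 191. The part of the olfactory receptor sum in the alpha results was not tested. In uninduced cells no alpha gene reached the filter, and the same sum was 0.226 to 0.232 CPM without treatment and 0.160 to 0.217 with dTAG13.

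The gamma genes that rose late did so with and without Trim24. Pcdhga1 at 12 h was at 26.3, 26.4 and 26.9 CPM without Trim24 and 23.8, 25.6 and 22.7 with it (log2 fold change 0.14 ± 0.08, adjusted p = 0.195). The gamma sum at 12 h was 64.9 ± 1.09 CPM without Trim24 and 62.1 ± 3.97 with it. Pcdhgc3 was lower without Trim24 at 4 h, at 3.46, 2.75 and 3.02 CPM against 4.25, 4.60 and 4.51, a log2 fold change of -0.49 ± 0.14 that did not reach the thresholds (adjusted p = 0.0213). In the RING experiment its groups overlapped, at 3.47 to 5.40 against 3.80 to 5.06 CPM.

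In the ligase-null line the alpha sum overlapped that of the Trim24-degraded cells and lay above that of the Trim24-expressing cells. The sum of Pcdha5 to Pcdha11 was 3.68 to 4.43 CPM, against 1.70 to 2.43 in Trim24-expressing and 3.18 to 4.24 in Trim24-degraded cells. Against Trim24-expressing cells 2 of 39 members were higher (limma, 4.67% of all genes were higher). Pcdha8 had 0.513, 0.675, 0.900 and 0.330 CPM against 0.207, 0.146, 0.208 and 0.175 (log2 fold change 0.80 ± 0.24, adjusted p = 0.00801). Pcdhb22 had 0.792, 0.935, 1.15 and 0.566 CPM against 0.413, 0.389, 0.208 and 0.409 (log2 fold change 0.76 ± 0.22, adjusted p = 0.00706). Neither pair of groups overlapped. Both calls were lost in voom on the recovered reads (0 members called), and without Trim24-expressing replicate 4, 5 or 6 or ligase-null replicate 2 or 3 (adjusted p from 0.0103 to 0.0506), and that of Pcdha8 was also lost without Trim24-expressing replicate 7 (0.0105). Against Trim24-degraded cells 3 of 35 were higher (4.83% of all genes), and all of them were beta genes. Pcdhb22 had 0.160, 0.159, 0.256 and 0.342 CPM in the degraded cells (log2 fold change 1.04 ± 0.21, adjusted p = 0.000111), and Pcdhb14 went from 0.255, 0.278, 0.146 and 0.471 to 0.699, 1.09, 0.950 and 0.849 (0.97 ± 0.20, adjusted p = 0.000206). Pcdhb16 overlapped, at 0.160, 0, 0.0365 and 0.214 against 0.326, 0.208, 0.5 and 0.707 CPM (0.77 ± 0.24, adjusted p = 0.00756), and was lost without degraded replicate 4, 5 or 6 or ligase-null replicate 3 or 4 (adjusted p from 0.0105 to 0.0444).

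The beta differences of the ligase-null line moved with its olfactory receptor sum. The summed beta level was 3.40 to 7.17 CPM in ligase-null cells, 2.19 to 5.44 in Trim24-expressing and 1.37 to 2.95 in Trim24-degraded cells, and the ratios of the means were 1.72 and 2.91. The ratios of the olfactory receptor sums were 1.60 and 2.18. Within each group the library with the highest olfactory sum, replicate 7 of the Trim24-expressing and degraded cells and replicate 4 of the ligase-null cells, also had the highest beta sum. The time course with Trim24 present differed, as its olfactory receptor sum rose 2.45 times by 12 h while its beta sums at 0 h and 12 h overlapped. An alternative fit left out ligase-null replicates 2, 3 and 4 and Trim24-expressing replicate 7, and was chosen after the data were seen. It leaves 1 ligase-null library assumed to vary like the others, so it cannot decide whether a call holds. Against Trim24-degraded cells the log2 fold changes were then 0.98 for Pcdhb22, 0.73 for Pcdhb14 and 0.60 for Pcdhb16. Against Trim24-expressing cells they were 0.74 for Pcdhb22 and 0.68 for Pcdha8. Primitive endoderm markers summed to 188 to 204 CPM in ligase-null, 16.5 to 19.8 in Trim24-expressing and 49.7 to 54.6 in Trim24-degraded cells. The part of either in the results was not tested.

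**Figure D5:**
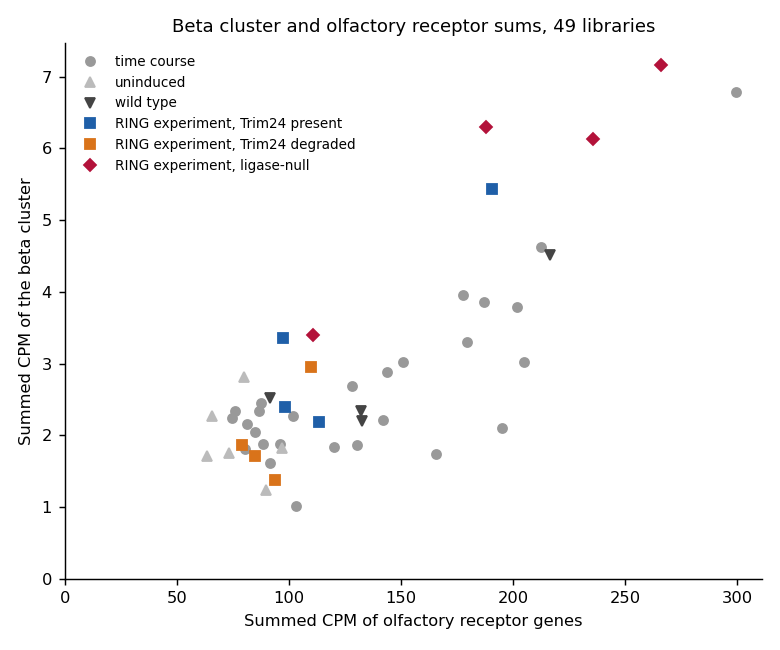
Summed CPM of the 22 beta cluster genes (y axis) against that of 1137 olfactory receptor genes (x axis), each point a library and 49 in all. Ligase-null replicates 2, 3 and 4 lie at 188 CPM or more of olfactory receptor signal and 6.13 CPM or more of beta signal, beside 1 time course library at 299.6 and 6.79.

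Genes that act on or beside these clusters were followed from lists chosen with earlier results of these data known. Of 31 regulators of cluster architecture, DNA methylation and silencing, 3 were lower at 4 h, and 21 were lower against 1 higher at 12 h, with Trim24 present (5.80% of all genes were lower at 4 h, and 22.9% lower and 30.3% higher at 12 h), and their median log2 fold change at 12 h was -1.08 against 0.04 over all genes. Dnmt3l, a cofactor of de novo DNA methylation, went from 354.8 ± 2.24 to 26.1 ± 1.99 CPM. Ctcf, which binds the variable promoters and their enhancers, went from 282.3 ± 4.17 to 121.7 ± 7.10, and Rad21, a cohesin subunit, from 608.6 ± 9.76 to 169.8 ± 6.08. Rest, a repressor of neuronal genes, fell from 823.5 ± 15.3 to 254.6 ± 13.8 CPM, and had a log2 fold change of -0.87 ± 0.03 already at 4 h. None of the 31 passed on Trim24 loss at 4 h or 12 h, where 1.15% and 4.11% of all genes changed, so these zeros lie near those shares. In wild-type cells none passed either (7.99% of all genes were called higher). The unadjusted limma p was under 0.05 for 6, 13 and 18 of the 31 in these comparisons. Of 20 intracellular partners of protocadherins, among them the kinase gene Ret and the WAVE complex gene Cyfip2, 4 were higher and 3 lower at 12 h, shares below those of all genes (30.3% and 22.9%). None of them passed on Trim24 loss at 12 h (4 with an unadjusted p under 0.05), where 4.11% of all genes changed. Of 27 genes flanking the clusters 3 were higher and 8 lower at 12 h, against the same 30.3% and 22.9% of all genes. Taf7, which lies between the beta and gamma arrays, stood at 327.4 ± 12.7 CPM at 0 h and 343.7 ± 22.1 at 12 h (log2 fold change 0.07 ± 0.06, adjusted p = 0.302).

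The non-clustered protocadherins, related genes scattered over the genome, are given beside the clusters. With Trim24 present 9 of 12 tested were higher at 12 h and 0 lower (30.3% and 22.9% of all genes). At 4 h 8 of the 12 were tested. Genes near 0 at 0 h could enter the test only through the libraries where they were high, so these counts do not describe the list as a whole. On Trim24 loss at 12 h 7 of 11 were higher and 1 lower (2.70% and 1.41% of all genes). Pcdh17 stood at 0.852 ± 0.0474 CPM at 0 h, 6.45 ± 0.752 at 12 h with Trim24 and 20.3 ± 2.39 without it (log2 fold change on loss 1.60 ± 0.11, adjusted p = 1.25e-10), and Pcdh9 at 0.118 ± 0.0520, 6.08 ± 0.290 and 16.0 ± 1.79 CPM (1.34 ± 0.11, adjusted p = 2.09e-09). Pcdh12, which flanks the gamma cluster, was lower without Trim24, at 1.17 ± 0.154 CPM against 2.60 ± 0.403 (-0.94 ± 0.18, adjusted p = 0.000239). The summed neuron markers went from 456 to 472 CPM at 0 h to 174 to 188 at 12 h, a sum carried by Tubb3 and Stmn2. Of the 12 markers 6 had a higher mean at 12 h and 6 a lower one. Rbfox3 went from 0.763 to 4.95 CPM, Neurod1 from 4.86 to 17.8 and Dcx from 0.0166 to 0.0882, and Dcx was at most 0.533 in any library. Neural progenitor markers summed to 35.7 to 39.8 CPM at 0 h and 33.6 to 39.8 at 12 h, and fibroblast or feeder markers to 29.7 to 31.0 and 59.7 to 69.2 CPM. The latter rise was carried mainly by Col1a1, which went from 0.8 to 27.35 CPM. Thy1 stood at 15.4 and 21.2 CPM and Pdgfra at 13.4 and 13.6.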

How the data were processed

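RNA-seq of 49 mouse ES cell libraries (Illumina TruSeq stranded total RNA) was deposited in 4 tables. Per the submitters' processing notes and the study's methods, the authors demultiplexed with bcl2fastq (2.17 and 2.20), aligned to mm10 with STAR, keeping a randomly chosen hit for multi-mapping reads, counted protein-coding genes by name with featureCounts, and deposited log2 CPM values, TMM-normalised with edgeR and a prior count of 8. Every table shared a floor of -1.48, and reads were recovered from the deposited log2 values; 100% came out whole within 0.01. CPM values given here are recovered reads over the TMM-scaled library total. The labels call the replicates biological. How far they were separate cultures is not given in the sources used here, and the spread between these libraries may be partly technical. The p-values rest on that spread together with a spread pooled over genes. For p53 activation at 8 h the pooled part weighed as a median of 130 prior degrees of freedom against 4 residual ones. For Trim24 loss at 8 h the prior was infinite, so p-values at 8 h hardly measure the spread between those libraries.

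Comparisons used limma (3.58.1, R 4.3.3; lmFit and eBayes with trend and robust) on the deposited values of the groups compared, and Benjamini-Hochberg adjustment over all genes tested. Genes lying more than 0.5 above the floor in at least the smaller group's number of libraries were tested. Calls needed both a p-value below 0.01 after adjustment and a change of 0.75 or more on the log2 scale. The authors' count-based test was not run because the deposited unit is log2. Alternatives were voom on recovered reads, quantile normalization, median centring, other filters, a prior count of 2, no trend, a looser threshold, a block for replicate number, a fit of every group in a table and leaving out each library. The code was tested on simulated data. Positions and unshared exon lengths come from GENCODE M21 on GRCm38, which is not the release the authors counted on, so unshared lengths are approximate. Named genes are the C-type genes, the 3 highest per kilobase in each cluster at 0 h and members past the thresholds (where more than 15, the 10 largest increases and 5 largest decreases), with Mdm2, Trim24 and list genes past the thresholds, and others were named after their values were seen. Members and gene lists were chosen with earlier results of these data known. Sequences are not reported here.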

Additional observations from a re-analysis of the deposited data

Results flagged for a closer look

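In the groups of 4 libraries of the RING experiment, 93 sets of values were screened for a library far from the other 3 (by Dixon's test), and 5 were found, where chance gives about 1 in 20. In the Trim24-expressing cells Pcdha5 was at 0.243 CPM in replicate 5 against 0.569 to 0.624 in the others, and Pcdha7 at 0.672 in replicate 4 against 0.389 to 0.416. Pcdhac1 was at 0.0517 CPM in replicate 4, a lone read, and at 0 in the others, and Pcdhb22 at 0.208 in replicate 6 against 0.389 to 0.413. In the Trim24-degraded cells Pcdhga5 was at 0.755 CPM in replicate 5 against 0.471 to 0.510 in the others. The 4 sets in Trim24-expressing cells fell on 3 different libraries. Groups of 2 or 3 libraries were not screened, and no member's effect of Trim24 loss differed between times in the interaction tests.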

How the results depend on the processing

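The counts of members called moved with the thresholds, the filter and the scaling. With an adjusted p under 0.05 and no minimum fold change 5 members were called at 2 h of activation, 14 at 4 h and 11 between 4 h and 12 h, 1, 1 and 2 on Trim24 loss at 4, 8 and 12 h, 2 in the RING experiment, 6 and 8 in the ligase-null line against expressing and degraded cells, and 10 in wild-type cells. A stricter filter, which tests fewer genes, left 0, 3, 8 and 11 members at 2, 4, 8 and 12 h, 0 and 1 in the ligase-null comparisons and 0 in wild-type cells. Quantile normalization gave 1, 12, 1, 0 and 6 at 2 h, at 4 h, on Trim24 loss in the RING experiment, in ligase-null against expressing cells and in wild-type cells, and turned Pcdhgb1 at 12 h to -0.0706. Median centring gave 0 for ligase-null against expressing cells, as did voom, no filter gave 1 and a prior count of 2 gave 1. A prior count of 2 also gave 1 on Trim24 loss in the RING experiment and 3 in wild-type cells, where no filter gave 3 and voom 4. Without trend and robust estimation 1 was called at 2 h. Omitting the libraries with the highest olfactory receptor sums, chosen after seeing the data, left 1 ligase-null library, so no count of calls is given for it. The cause of these shifts was not tested. Leaving out each library gave 1 to 4 at 2 h, 6 to 7 at 4 h, 14 to 16 at 8 h, 18 to 21 at 12 h, 0 to 1 on Trim24 loss in the RING experiment, 0 to 3 and 2 to 4 in the ligase-null comparisons and 1 to 4 in wild-type cells. Same-numbered libraries did not deviate together (correlations of -0.207 to 0.198), so the numbers do not pair them. With a replicate block the counts were 3, 6, 14 and 19 at 2, 4, 8 and 12 h, 6 between 4 h and 12 h, 1 on Trim24 loss at 12 h and 2 in wild-type cells, and 0 in the other comparisons of Trim24 loss. Pcdhga5 at 4 h was lost under the block, under a prior count of 2 and without 0 h replicate 1 (-0.61) or 3 (-0.83) or 4 h replicate 1 (-0.61) or 2 (-0.72), and Pcdhgb7 at 8 h without 0 h replicate 1 (-0.71) or 8 h replicate 1 (-0.61). Over the recovered library total in place of the TMM-scaled total the gamma sum was 25.8, 27.9, 42.2 and 72.1 CPM at 0, 2, 8 and 12 h with Trim24, 44.1 and 79.0 at 8 and 12 h without it, 32.5 in untreated wild-type cells and 28.8 in the degraded cells of the RING experiment, and the alpha sum was 4.53 at 12 h with Trim24 and 9.31 and 6.92 at 8 and 12 h without it. Of 875 alternative values for the 56 single-gene calls 786 kept the call, 88 kept the direction only and 1 reversed. These include the looser threshold, which keeps every call by construction. Genes that a stricter filter no longer tested were left out of the tally, so the share kept is too high. Most members had under 1 CPM, where a few reads set the value, and small changes could not be detected at this depth.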
